A study of Homo sapiens with 9 samples.

Results

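The genes described here carry glucose through glycolysis, decide what becomes of pyruvate, and make ribose through the pentose phosphate pathway. The arrays came from Daudi, a human Burkitt lymphoma line of B cells; this is the tumour type in which MYC is placed under an immunoglobulin enhancer. The set was a list of 37 genes, each taken as the probe set annotated with exactly that symbol and, where several were, the brightest by its mean signal on the 9 arrays. Of the 37 listed genes, 35 had such a probe set, out of 19775 genes in all. SLC16A1 and SLC16A3, both lactate transporters, were not analysed here. The neuronal enolase ENO2 lay below the level used to filter dim probe sets, with group means of 3.45, 2.53 and 3.44 log2 units in Slc7a5-sh, C-Myc-sh and Ctrl-sh cells, so 34 of the 37 were among the 11250 genes tested.

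The study infected Daudi cells with a short hairpin RNA against SLC7A5 (Slc7a5-sh), a hairpin against MYC (C-Myc-sh, named by the submitters as their positive control) or a control hairpin (Ctrl-sh). All cells, controls included, were selected with puromycin for 48 hours, and 3 arrays were hybridised per group. SLC7A5 encodes LAT1, the transporter that imports leucine and other large neutral amino acids, and MYC encodes a transcription factor that drives growth and metabolism. The arrays were Affymetrix 3' expression arrays, on which RNA is read by sets of short probes near the end of each transcript. The number of hairpins per gene and the origin of the replicates beyond the word biological were not given, so the p-values measure the spread between these arrays. Fewer cells making a transcript and less transcript per cell cannot be told apart in such bulk RNA.

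Glycolysis splits glucose into pyruvate with a small gain of ATP, and proliferating B cells and their tumours run it at a high rate even with oxygen present. Pyruvate is then either reduced to lactate by lactate dehydrogenase or fed to the mitochondrial pyruvate dehydrogenase complex, which is switched off by pyruvate dehydrogenase kinases and on by phosphatases. The pentose phosphate pathway branches off at glucose phosphate. Its oxidative arm yields NADPH and its non-oxidative arm interconverts pentoses with glycolytic sugars, which supplies ribose for nucleotides. Many genes of these routes are textbook targets of MYC and of the hypoxia factor HIF1.

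The DNA upstream of 5 of the genes is shown to place the results on sequence, since both MYC and HIF1 bind short motifs. The window printed is the 250 bases before the annotated start in RefSeq, assembly GRCh38.p14, read 5′ to 3′ on the strand of the gene. Capitals mark CACGTG, the E-box read by MYC with MAX, and other copies of ACGTG on either strand (CACGT on the printed one), the core of the hypoxia response element, which also lies inside CACGTG. PDK1, HK2 and PFKFB4 were chosen as the genes whose signal was lower in both knockdowns by the largest amount, counting the smaller of the changes. LDHA and ALDOC were chosen after the motif counts were seen.
PDK1 promoter, chr2:172555123-172555372, plus strand: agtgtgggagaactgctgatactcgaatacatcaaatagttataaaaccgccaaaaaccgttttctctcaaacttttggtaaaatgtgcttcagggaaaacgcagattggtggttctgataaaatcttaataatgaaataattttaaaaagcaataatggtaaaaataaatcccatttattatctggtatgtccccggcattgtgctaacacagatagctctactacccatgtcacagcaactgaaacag
HK2 promoter, chr2:74833877-74834126, plus strand: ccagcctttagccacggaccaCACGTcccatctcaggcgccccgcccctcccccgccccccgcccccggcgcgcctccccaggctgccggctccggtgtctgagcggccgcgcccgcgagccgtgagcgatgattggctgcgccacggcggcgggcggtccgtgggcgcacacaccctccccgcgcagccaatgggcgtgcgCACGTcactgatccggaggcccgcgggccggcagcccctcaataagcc
PFKFB4 promoter, chr3:48556804-48557053, minus strand: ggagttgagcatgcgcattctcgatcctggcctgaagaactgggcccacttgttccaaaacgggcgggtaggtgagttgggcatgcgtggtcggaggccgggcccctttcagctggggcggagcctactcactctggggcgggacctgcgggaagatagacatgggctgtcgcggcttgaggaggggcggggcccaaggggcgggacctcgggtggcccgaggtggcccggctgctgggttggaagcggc
LDHA promoter, chr11:18394313-18394562, plus strand: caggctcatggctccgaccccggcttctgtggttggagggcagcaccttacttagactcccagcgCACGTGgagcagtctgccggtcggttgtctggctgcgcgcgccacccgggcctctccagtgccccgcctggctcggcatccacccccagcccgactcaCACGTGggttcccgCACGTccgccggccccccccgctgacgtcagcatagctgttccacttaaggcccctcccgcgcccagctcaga
ALDOC promoter, chr17:28576896-28577145, minus strand: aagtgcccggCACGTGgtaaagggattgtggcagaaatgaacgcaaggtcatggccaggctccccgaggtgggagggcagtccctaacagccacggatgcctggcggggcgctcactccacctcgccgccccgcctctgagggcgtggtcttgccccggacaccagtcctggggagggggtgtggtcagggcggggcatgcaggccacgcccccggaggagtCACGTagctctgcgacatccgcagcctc
The LDHA promoter held 2 copies of CACGTG and the ALDOC promoter 1, each beside 1 further ACGTG on the other strand. HK2 held ACGTG 2 times without the full E-box, and PDK1 and PFKFB4 held neither motif in this window. Over the wider window that runs on to 50 bases after the start, 32 of the 37 genes had a promoter in the RefSeq table. CACGTG was found in 3 of them (9.38%; LDHA, ALDOC and GAPDH), against 7.43% of all 27305 promoters, and ACGTG on either strand in 10 (31.2%), against 21.6%. A match is a string of letters and shows no binding, and a window without one says nothing of the factor.

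Both hairpin targets were lower in both knockdowns. MYC signal was 12.90, 12.79 and 12.93 on Slc7a5-sh arrays, 12.12, 12.14 and 12.13 on C-Myc-sh arrays and 13.16, 13.26 and 13.24 on Ctrl-sh arrays, on the log2 scale used throughout. It was lower by limma in both knockdowns, with log2 changes against Ctrl-sh of −0.35 (SE 0.05, adjusted p = 3.8e-04) in Slc7a5-sh cells and −1.09 (SE 0.05, adjusted p = 4.7e-10) in C-Myc-sh cells. C-Myc-sh cells thus kept 46.9% of the Ctrl-sh MYC signal and Slc7a5-sh cells 78.7%. SLC7A5 signal was 11.86, 11.84 and 11.95 on Slc7a5-sh arrays, 11.79, 11.78 and 11.84 on C-Myc-sh arrays and 12.06, 12.35 and 12.21 on Ctrl-sh arrays. It changed by −0.32 (SE 0.07, adjusted p = 0.00414) in Slc7a5-sh cells, which left 80.0% of the Ctrl-sh signal, and by −0.41 (SE 0.07, adjusted p = 1.9e-04) in C-Myc-sh cells. Between C-Myc-sh and Slc7a5-sh cells the SLC7A5 difference of −0.08 (adjusted p = 0.351), with a 95% interval of −0.24 to 0.07, was not called, and the C-Myc-sh arrays lay narrowly below the Slc7a5-sh arrays without overlap. All p-values for genes are from limma with Benjamini-Hochberg adjustment over the 11250 tested genes, and a gene is called lower or higher at an adjusted p under 0.05.

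The arrays of a group resembled each other closely. Correlations between arrays of a group across the tested genes lay between 0.972 and 0.977, and array medians between 6.05 and 6.26. All 8 measured B-cell markers, among them MS4A1 and CD79A, lay above the filter level in each group, as did all 4 measured germinal-centre markers. Summed linear signal of the 11 T and NK cell markers was 302.5 to 425.7 on Slc7a5-sh, 408.7 to 494.7 on C-Myc-sh and 455.5 to 583.1 on Ctrl-sh arrays, with 1, 2 and 3 of them above the filter level. Of 7 myeloid markers 0, 1 and 1 lay above it, and of 11 epithelial and fibroblast markers 5, 3 and 4, in the same order of groups. Median signal of the B-cell markers was 11.77 in Slc7a5-sh, 12.42 in C-Myc-sh and 12.10 in Ctrl-sh cells. Their summed signal did not overlap between the groups, with C-Myc-sh highest and Slc7a5-sh lowest. The median of the germinal-centre markers was 12.03 in Slc7a5-sh, 11.63 in C-Myc-sh and 12.21 in Ctrl-sh cells, and their summed signal on each C-Myc-sh array lay below every other array. The part of these marker levels in the results below was not tested.

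Along the pathway the signals were lower more often than higher in both knockdowns. In Slc7a5-sh cells 17 of the 34 tested genes fell and none rose against Ctrl-sh, while 25.3% of all tested genes were called, 11.0% lower and 14.3% higher. In C-Myc-sh cells 22 fell, 3 rose and 9 were not called, against 54.9% called among all tested genes, 26.2% lower and 28.7% higher. Brighter genes were called more often, which narrows these contrasts. With the filter raised to the 75th percentile of probe sets, 16 of 29 listed genes were called in Slc7a5-sh cells, against 2800 of 7336 in all. For C-Myc-sh cells it was 22 of 29, against 5139 of 7336. Median log2 change was −0.20 in Slc7a5-sh cells and −0.45 in C-Myc-sh cells for the 34 genes, against 0.03 and 0.04 for all tested genes. Over the 35 measured genes, with ENO2 included, the medians were −0.19 and −0.47. A fall of 0.5 log2 units or more was called for 7 of the genes in Slc7a5-sh cells, where 3.96% of all genes met that rule, and for 15 in C-Myc-sh cells, where 16.4% did. The plot of changes in pathway order shows 6 of the 9 upper glycolysis genes called lower in both knockdowns (HK2, GPI, PFKL, PFKP, ALDOA and TPI1), and TKT, RPIA and RPE called lower in C-Myc-sh cells. Among all tested genes 7.30% were called lower in both knockdowns. Both comparisons use the same 3 Ctrl-sh arrays.

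**Figure D1:**
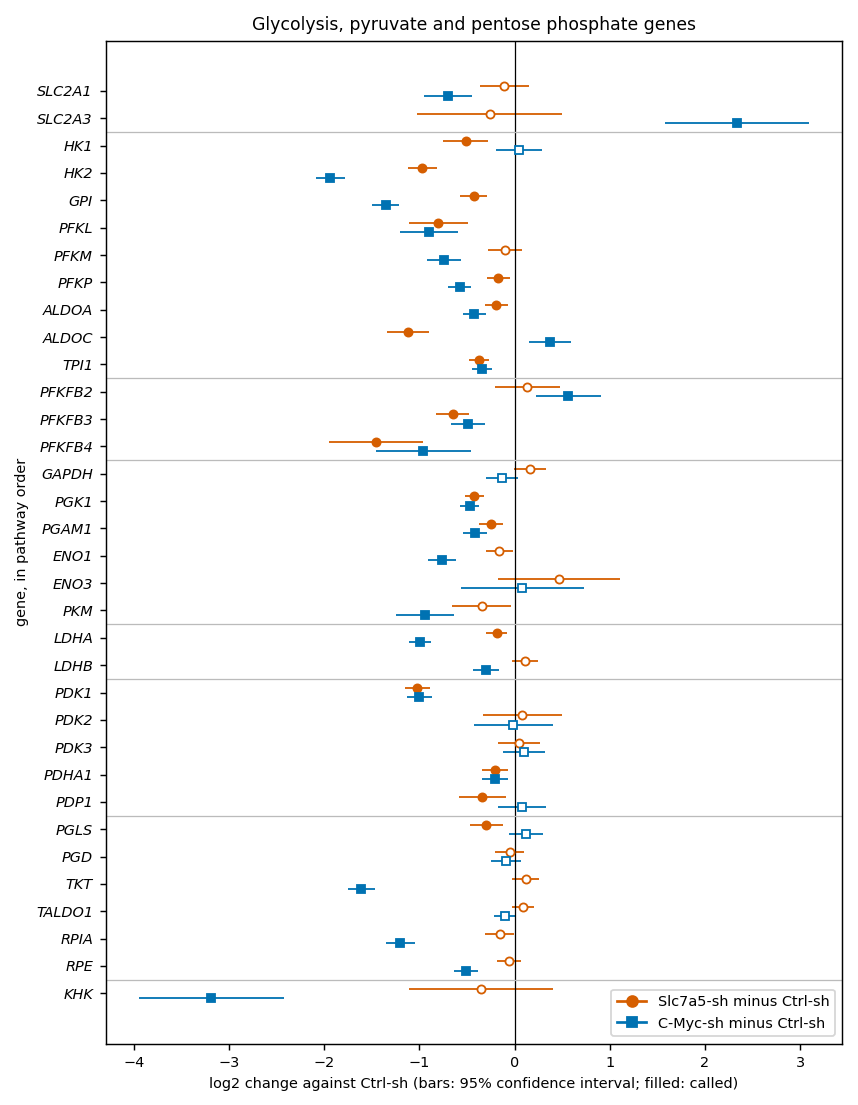
Log2 change against Ctrl-sh of the 34 tested genes in pathway order, circles for Slc7a5-sh and squares for C-Myc-sh, with limma 95% confidence intervals and filled symbols for called genes. Most symbols lie left of 0, the exceptions that were called being SLC2A3, ALDOC and PFKFB2 in C-Myc-sh cells.

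The glucose transporters went opposite ways in C-Myc-sh cells. SLC2A1, the widely expressed glucose transporter GLUT1, had 9.64, 9.58 and 9.52 on Slc7a5-sh arrays, 9.18, 8.85 and 8.94 on C-Myc-sh arrays and 9.70, 9.57 and 9.80 on Ctrl-sh arrays. The C-Myc-sh arrays lay below all others, while the Slc7a5-sh and Ctrl-sh arrays overlapped. Its change was −0.70 (SE 0.12, adjusted p = 1.5e-04) in C-Myc-sh and −0.11 (adjusted p = 0.555) in Slc7a5-sh cells. SLC2A3, the high-affinity transporter GLUT3, gave 5.19, 5.88 and 5.85 on Slc7a5-sh arrays, 8.37, 8.26 and 8.07 on C-Myc-sh arrays and 5.80, 5.99 and 5.91 on Ctrl-sh arrays. Here the 3 C-Myc-sh arrays lay above every other array and the other groups overlapped near the filter level of 5.77. SLC2A3 rose in C-Myc-sh cells, with a log2 change of 2.33 (SE 0.35, adjusted p = 4.9e-05), against −0.26 (adjusted p = 0.639) in Slc7a5-sh cells. It passed the filter through the C-Myc-sh arrays, its other 2 probe sets lay below the filter level, and the size of its rise is uncertain, being set against signals near that level. Both transporters also differed when the knockdowns were set against each other, by −0.59 (adjusted p = 7.8e-04) for SLC2A1 and 2.60 (adjusted p = 2.3e-05) for SLC2A3. The direct SLC2A1 difference rested on its bright probe set and was 0.86 and not called (adjusted p = 0.427) on the other, whose mean lay near the filter level. With its probe sets averaged, the C-Myc-sh change of SLC2A1 was −0.78 and not called (adjusted p = 0.159).

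Hexokinase, the first step, showed the largest fall of the upper pathway in C-Myc-sh cells. HK2, the inducible hexokinase bound to mitochondria in many tumours, measured 12.04, 11.95 and 11.87 on Slc7a5-sh arrays, 10.82, 11.10 and 11.04 on C-Myc-sh arrays and 12.92, 12.90 and 12.95 on Ctrl-sh arrays. The groups did not overlap, with C-Myc-sh lowest, Slc7a5-sh between and Ctrl-sh highest. HK2 fell to 26.1% of the Ctrl-sh signal in C-Myc-sh cells (−1.94, SE 0.07, adjusted p = 3.0e-11) and to 51.1% in Slc7a5-sh cells (−0.97, SE 0.07, adjusted p = 9.6e-07). HK2 has a pair of dimmer probe sets, which changed by −1.18 and −1.54 in C-Myc-sh cells, both called, but by 0.18 and 0.23 in Slc7a5-sh cells, neither called. The Slc7a5-sh call for HK2 thus stood on 1 of 3 probe sets, and their mean changed by −0.19 (adjusted p = 0.392). HK1, the constitutive hexokinase, had 9.71, 10.05 and 9.75 on Slc7a5-sh arrays, 10.33, 10.41 and 10.46 on C-Myc-sh arrays and 10.48, 10.44 and 10.15 on Ctrl-sh arrays. Only the Slc7a5-sh arrays lay apart, below the others. HK1 fell by 0.52 (SE 0.11, adjusted p = 0.00363) on the log2 scale in Slc7a5-sh cells and changed by 0.05 (adjusted p = 0.741) in C-Myc-sh cells, and the knockdowns differed by 0.56 (adjusted p = 6.5e-04).

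The next steps lead to fructose bisphosphate. GPI, which turns glucose phosphate into fructose phosphate, had 12.37, 12.22 and 12.47 on Slc7a5-sh arrays, 11.39, 11.42 and 11.48 on C-Myc-sh arrays and 12.78, 12.81 and 12.76 on Ctrl-sh arrays. The 3 groups were again apart and in the same order as for HK2. GPI changed by −1.36 (SE 0.07, adjusted p = 3.2e-10) in C-Myc-sh cells and −0.43 (SE 0.07, adjusted p = 2.8e-04) in Slc7a5-sh cells, and by −0.93 (adjusted p = 2.6e-08) between them. Phosphofructokinase, the committed step, is made from liver, muscle and platelet subunits. For PFKL, the liver type, signals were 8.88, 9.0 and 8.72 on Slc7a5-sh arrays, 8.53, 8.91 and 8.86 on C-Myc-sh arrays and 9.48, 9.79 and 9.73 on Ctrl-sh arrays. Both knockdowns lay below Ctrl-sh, and their arrays overlapped each other. PFKL changed by −0.80 (SE 0.14, adjusted p = 0.00102) in Slc7a5-sh cells and −0.90 (SE 0.14, adjusted p = 8.2e-05) in C-Myc-sh cells, and by −0.10 between them, with a 95% interval of −0.41 to 0.21. A dimmer PFKL probe set changed by −0.22 and −0.31 and was called in neither.

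PFKM, the muscle type, read 11.92, 11.81 and 12.04 on Slc7a5-sh arrays, 11.35, 11.25 and 11.24 on C-Myc-sh arrays and 12.05, 12.16 and 11.86 on Ctrl-sh arrays. Only C-Myc-sh stood apart, with a change of −0.74 (SE 0.08, adjusted p = 1.9e-06), against −0.10 (adjusted p = 0.411) in Slc7a5-sh cells. PFKP, the platelet type, had 12.48, 12.33 and 12.33 on Slc7a5-sh arrays, 11.98, 11.97 and 11.99 on C-Myc-sh arrays and 12.55, 12.59 and 12.52 on Ctrl-sh arrays. Its groups did not overlap, and it changed by −0.58 (SE 0.06, adjusted p = 6.0e-07) in C-Myc-sh cells and by −0.17 (SE 0.06, adjusted p = 0.0368) in Slc7a5-sh cells. That Slc7a5-sh call was lost without Ctrl-sh replicate 1, 2 or 3 or without Slc7a5-sh replicate 2 or 3, at changes of −0.17, −0.16, −0.19, −0.15 and −0.15. With the PFKP probe sets averaged neither knockdown was called (0.26 in Slc7a5-sh cells, and −0.51 with adjusted p = 0.339 in C-Myc-sh cells).

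Aldolase, which cleaves fructose bisphosphate into triose phosphates, held the single gene of the list called in opposite directions. ALDOC, the brain-type aldolase, had 9.14, 9.14 and 9.46 on Slc7a5-sh arrays, 10.78, 10.79 and 10.65 on C-Myc-sh arrays and 10.43, 10.40 and 10.27 on Ctrl-sh arrays. The groups did not overlap, and Ctrl-sh lay between the knockdowns. ALDOC fell to 45.9% of the Ctrl-sh signal in Slc7a5-sh cells (−1.12, SE 0.10, adjusted p = 5.9e-06) and rose in C-Myc-sh cells (0.37, SE 0.10, adjusted p = 0.00651), a gap of 1.50 (SE 0.10, adjusted p = 2.2e-08) between C-Myc-sh and Slc7a5-sh cells. Among all tested genes 2.53% were called in opposite directions. ALDOA, the main form of muscle and of most dividing cells, changed by −0.42 (adjusted p = 1.4e-05) in C-Myc-sh and −0.19 (adjusted p = 0.0233) in Slc7a5-sh cells. Its Slc7a5-sh call was lost without Ctrl-sh replicate 1 or 2 (−0.17, −0.19) or Slc7a5-sh replicate 1 or 2 (−0.19, −0.15). TPI1, which interconverts the triose phosphates, fell in both knockdowns, by 0.38 log2 units in Slc7a5-sh cells (adjusted p = 8.5e-05) and 0.34 in C-Myc-sh cells (adjusted p = 2.6e-05). The Slc7a5-sh call of TPI1 was lost with its probe sets averaged (−0.46, adjusted p = 0.0566) and without probe sets ending in _s_at or _x_at (−0.76, adjusted p = 0.17). Of the 9 upper glycolytic genes, from the hexokinases to TPI1, 8 fell and none rose in Slc7a5-sh cells, and 7 fell and 1 rose in C-Myc-sh cells. Among all tested genes 11.0% were called lower and 14.3% higher in Slc7a5-sh cells, and 26.2% and 28.7% in C-Myc-sh cells.

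The PFKFB genes encode the enzymes that make and remove fructose bisphosphate's regulatory isomer, the strongest activator of phosphofructokinase. PFKFB4 measured 7.15, 7.43 and 7.45 on Slc7a5-sh arrays, 8.32, 7.38 and 7.83 on C-Myc-sh arrays and 8.82, 8.76 and 8.83 on Ctrl-sh arrays. All knockdown arrays lay below Ctrl-sh, and the knockdowns overlapped, C-Myc-sh arrays being the more widely spread. PFKFB4 showed the largest fall of the list in Slc7a5-sh cells on the probe sets used, −1.46 (SE 0.23, adjusted p = 4.1e-04), which left 36.4% of the Ctrl-sh signal, and changed by −0.96 (SE 0.23, adjusted p = 0.00261) in C-Myc-sh cells. The difference between the knockdowns, 0.50 (adjusted p = 0.089), was not called, though without C-Myc-sh replicate 2 it was, at 0.73. Averaged with a second probe set that lay below the filter level, PFKFB4 changed by −0.69 in Slc7a5-sh cells (adjusted p = 0.479) and by −0.81 in C-Myc-sh cells (adjusted p = 0.282), and neither was called.

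PFKFB3, the isoform with the highest kinase activity, had 10.14, 10.11 and 10.08 on Slc7a5-sh arrays, 10.33, 10.21 and 10.28 on C-Myc-sh arrays and 10.88, 10.70 and 10.71 on Ctrl-sh arrays. Slc7a5-sh was lowest, C-Myc-sh next and Ctrl-sh highest, without overlap. Its changes were −0.65 (SE 0.08, adjusted p = 6.5e-05) in Slc7a5-sh cells and −0.49 (SE 0.08, adjusted p = 1.2e-04) in C-Myc-sh cells, and the difference of 0.16 (adjusted p = 0.116) between them was not called. PFKFB2, the heart isoform, had 8.76, 8.46 and 8.61 on Slc7a5-sh arrays, 9.10, 8.86 and 9.16 on C-Myc-sh arrays and 8.44, 8.70 and 8.29 on Ctrl-sh arrays. The C-Myc-sh arrays lay above those of both other groups, which overlapped. It rose by 0.57 (SE 0.16, adjusted p = 0.00727) in C-Myc-sh cells and changed by 0.13 (adjusted p = 0.588) in Slc7a5-sh cells. A mean of all its probe sets gave −0.51 in C-Myc-sh cells (adjusted p = 0.42).

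**Figure D2:**
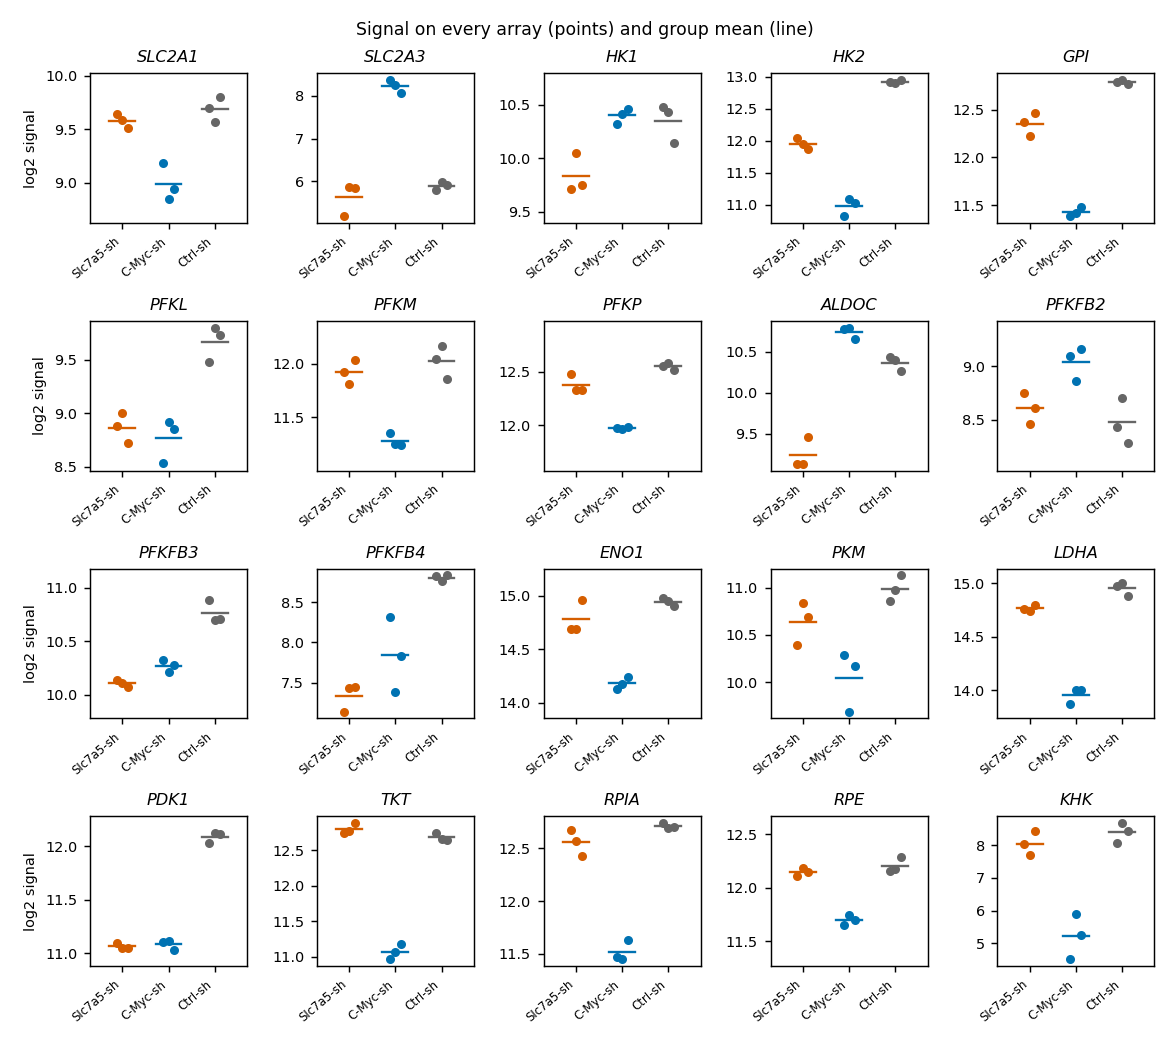
Log2 signal on each array (points) and group mean (line) for the 20 genes called with a change of 0.5 log2 units or more in either knockdown, with Slc7a5-sh left, C-Myc-sh in the middle and Ctrl-sh right; each panel has its own axis. HK2 and GPI step down to C-Myc-sh, PDK1 and PFKL are low in both knockdowns, and TKT, RPIA and KHK are low in C-Myc-sh cells.

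Lower glycolysis runs from GAPDH to pyruvate kinase. Of its 6 tested genes 2 fell in Slc7a5-sh cells, PGK1 and PGAM1, and 4 fell in C-Myc-sh cells, with ENO1 and PKM in addition, against 11.0% and 26.2% of all tested genes called lower. PGK1, the first ATP-making step, changed by −0.42 (SE 0.05, adjusted p = 2.3e-05) in Slc7a5-sh cells and −0.47 (SE 0.05, adjusted p = 4.9e-07) in C-Myc-sh cells. PGAM1, the phosphoglycerate mutase, changed by −0.25 (adjusted p = 0.00682) and −0.42 (adjusted p = 2.4e-05) in the same order. GAPDH, the dehydrogenase often used as a reference transcript, was called in neither, at 0.16 (adjusted p = 0.147) and −0.13 (adjusted p = 0.167), yet C-Myc-sh cells were lower than Slc7a5-sh cells, with a difference of −0.30 (adjusted p = 0.00556). In a limma fit of all probe sets, another GAPDH set with mean 14.79 was called lower in C-Myc-sh cells (−0.23, adjusted p = 0.0069). The remaining GAPDH set was not called there (−0.17, adjusted p = 0.105). ENO3, the muscle enolase, changed by 0.47 (adjusted p = 0.284) in Slc7a5-sh cells and 0.08 (adjusted p = 0.836) in C-Myc-sh cells.

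ENO1, the main enolase, measured 14.69, 14.69 and 14.96 on Slc7a5-sh arrays, 14.13, 14.18 and 14.24 on C-Myc-sh arrays and 14.98, 14.95 and 14.90 on Ctrl-sh arrays. C-Myc-sh arrays lay below all others, and Slc7a5-sh and Ctrl-sh overlapped. ENO1 fell in C-Myc-sh cells, with a change of −0.76 (SE 0.07, adjusted p = 1.8e-07). In Slc7a5-sh cells it changed by −0.16 (adjusted p = 0.0958), which was not called. It was called lower there without Slc7a5-sh replicate 3 (−0.25), after quantile normalization (−0.26, adjusted p = 4.6e-04), with its probe sets averaged (−0.51, adjusted p = 7.6e-04) and without probe sets ending in _s_at or _x_at (−1.0, adjusted p = 0.0435). PKM, the pyruvate kinase of most tissues and tumours, had 10.40, 10.83 and 10.69 on Slc7a5-sh arrays, 10.28, 9.69 and 10.17 on C-Myc-sh arrays and 10.86, 10.97 and 11.13 on Ctrl-sh arrays. The groups did not overlap, in the order C-Myc-sh, Slc7a5-sh, Ctrl-sh from low to high. The C-Myc-sh change was −0.94 (SE 0.14, adjusted p = 5.1e-05), and the Slc7a5-sh change of −0.35 (adjusted p = 0.0924) missed the threshold and passed it without C-Myc-sh replicate 2, at −0.35, and with the 6 arrays compared fitted alone (−0.35, adjusted p = 0.0392). A dimmer PKM probe set changed by 0.19 and −0.19 in Slc7a5-sh and C-Myc-sh cells and was called in neither. The splice forms of PKM are not separated by these values.

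Lactate dehydrogenase turns pyruvate into lactate. LDHA, the subunit that prevails in tumours, had 14.76, 14.74 and 14.80 on Slc7a5-sh arrays, 13.87, 14.00 and 14.01 on C-Myc-sh arrays and 14.98, 15.00 and 14.89 on Ctrl-sh arrays. The groups did not overlap, and C-Myc-sh was lowest. LDHA fell to 50.1% of the Ctrl-sh signal in C-Myc-sh cells (−1.0, SE 0.05, adjusted p = 7.9e-10), and by 0.19 (SE 0.05, adjusted p = 0.0157) on the log2 scale in Slc7a5-sh cells. That smaller change lost its call without Ctrl-sh replicate 1 (−0.18) or 2 (−0.17). LDHB, the heart-type subunit, changed by −0.30 (adjusted p = 0.00102) in C-Myc-sh and 0.11 (adjusted p = 0.249) in Slc7a5-sh cells.

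Control of pyruvate dehydrogenase held a gene that fell by about 1 log2 unit in each knockdown. PDK1, the kinase that shuts the complex off when HIF1 is active, had 11.10, 11.05 and 11.05 on Slc7a5-sh arrays, 11.11, 11.11 and 11.03 on C-Myc-sh arrays and 12.03, 12.13 and 12.11 on Ctrl-sh arrays. All 6 knockdown arrays lay below Ctrl-sh, and the knockdowns overlapped each other. The changes were −1.02 (SE 0.06, adjusted p = 1.3e-07) in Slc7a5-sh cells and −1.0 (SE 0.06, adjusted p = 3.7e-09) in C-Myc-sh cells. Between the knockdowns the difference was 0.02, with a 95% interval of −0.11 to 0.15. A second, dimmer PDK1 probe set gave −0.76 in Slc7a5-sh cells and −0.64 in C-Myc-sh cells. The dimmest PDK1 probe set, near the filter level, gave −0.25 (adjusted p = 0.886) and −0.59 (adjusted p = 0.6) and was called in neither.

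The related kinases were not called on the probe sets used here. PDK2 changed by 0.08 (adjusted p = 0.797) in Slc7a5-sh cells and −0.01 (adjusted p = 0.962) in C-Myc-sh cells, and PDK3 by 0.05 (adjusted p = 0.78) and 0.10 (adjusted p = 0.435). PDK3 is read here by its brightest probe set. Of its 4 other probe sets, 2 were called lower in C-Myc-sh cells, at −0.74 and −1.05, and were not called in Slc7a5-sh cells, at −0.59 and −0.49. PDHA1, the catalytic subunit that the kinases phosphorylate, changed by −0.21 (adjusted p = 0.0259) in Slc7a5-sh cells and −0.21 (adjusted p = 0.0119) in C-Myc-sh cells. The Slc7a5-sh call of PDHA1 was lost without Ctrl-sh replicate 2 (−0.18) or 3 (−0.22) or Slc7a5-sh replicate 1 or 2 (both −0.20), and the C-Myc-sh call without Ctrl-sh replicate 2 (−0.18) or C-Myc-sh replicate 1 (−0.16), or after quantile normalization between arrays (−0.06). Both were lost without probe sets ending in _s_at or _x_at (−0.18 and −0.20). PDP1, a phosphatase that reactivates the complex, changed by −0.34 (adjusted p = 0.0463) in Slc7a5-sh cells and 0.08 (adjusted p = 0.596) in C-Myc-sh cells. Its Slc7a5-sh call was lost when any array but Slc7a5-sh replicate 2 was left out, with changes of −0.37 (without Ctrl-sh replicate 2) to −0.25 (without Slc7a5-sh replicate 3).

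Of the 6 pentose phosphate enzymes, 5 differed between the knockdowns directly, 4 lower and 1 higher in C-Myc-sh than in Slc7a5-sh cells, against 49.5% of all tested genes called, 25.1% lower and 24.4% higher. Against Ctrl-sh, TKT, RPIA and RPE fell in C-Myc-sh cells and were not called in Slc7a5-sh cells. TKT, the transketolase that moves carbon pairs between sugars, had 12.74, 12.78 and 12.89 on Slc7a5-sh arrays, 10.97, 11.07 and 11.18 on C-Myc-sh arrays and 12.74, 12.67 and 12.65 on Ctrl-sh arrays. Its C-Myc-sh arrays lay below all others, and its Slc7a5-sh arrays lay narrowly above Ctrl-sh. TKT dropped to 32.8% of the Ctrl-sh signal in C-Myc-sh cells (−1.61, SE 0.07, adjusted p = 6.7e-11) and changed by 0.12 (adjusted p = 0.211) in Slc7a5-sh cells. RPIA, the isomerase that forms ribose phosphate, had 12.68, 12.57 and 12.43 on Slc7a5-sh arrays, 11.46, 11.45 and 11.63 on C-Myc-sh arrays and 12.74, 12.70 and 12.71 on Ctrl-sh arrays. C-Myc-sh was again far below, and Slc7a5-sh lay just below Ctrl-sh without overlap. The changes of RPIA were −1.20 (SE 0.07, adjusted p = 2.6e-09) in C-Myc-sh and −0.15 (adjusted p = 0.127) in Slc7a5-sh cells.

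RPE, the epimerase that forms xylulose phosphate, had 12.11, 12.18 and 12.15 on Slc7a5-sh arrays, 11.65, 11.75 and 11.70 on C-Myc-sh arrays and 12.15, 12.18 and 12.29 on Ctrl-sh arrays. C-Myc-sh was below the others, which overlapped, and the changes were −0.51 (SE 0.06, adjusted p = 3.3e-06) in C-Myc-sh and −0.06 (adjusted p = 0.506) in Slc7a5-sh cells. Set directly against Slc7a5-sh cells, C-Myc-sh cells had lower TKT (−1.73, SE 0.07, adjusted p = 6.0e-11), RPIA (−1.04, SE 0.07, adjusted p = 1.7e-08) and RPE (−0.45, SE 0.06, adjusted p = 1.6e-05), and slightly lower TALDO1 (−0.19, adjusted p = 0.00943). With its probe sets averaged RPE was not called in C-Myc-sh cells (−0.40, adjusted p = 0.15) and turned in sign between the knockdowns (0.073). Without probe sets ending in _s_at or _x_at the direct calls of TKT (−0.79, adjusted p = 0.088) and RPE (−0.12, adjusted p = 0.347) were lost. TALDO1, the transaldolase, was called in neither knockdown against Ctrl-sh. PGD, the NADPH-making dehydrogenase late in the oxidative arm, was not called either, at −0.05 (adjusted p = 0.645) in Slc7a5-sh cells and −0.09 (adjusted p = 0.296) in C-Myc-sh cells. PGLS, the lactonase between the dehydrogenases, was the one that was higher in C-Myc-sh than in Slc7a5-sh cells (0.41, adjusted p = 6.8e-04). It changed by −0.30 (adjusted p = 0.0165) in Slc7a5-sh cells and 0.12 (adjusted p = 0.242) in C-Myc-sh cells, and the Slc7a5-sh call was lost without Ctrl-sh replicate 1 (−0.28) or 3 (−0.27) or Slc7a5-sh replicate 2 (−0.22).

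KHK, the ketohexokinase that admits fructose below the phosphofructokinase step, showed the largest change of the list. Its signal was 8.03, 7.70 and 8.43 on Slc7a5-sh arrays, 4.51, 5.89 and 5.26 on C-Myc-sh arrays and 8.09, 8.69 and 8.45 on Ctrl-sh arrays. C-Myc-sh lay below all others, with 2 of its arrays under the filter level of 5.77, and the Slc7a5-sh and Ctrl-sh arrays overlapped. KHK changed by −3.19 (SE 0.35, adjusted p = 2.2e-06) in C-Myc-sh and −0.35 (adjusted p = 0.517) in Slc7a5-sh cells. With all signals raised to at least the filter level, the C-Myc-sh change was −2.60 (adjusted p = 2.1e-07), so its size depends on how dim signals are treated. The other KHK probe set lay below the filter level (mean 3.92). In a limma fit of all probe sets it changed by −0.98 in C-Myc-sh cells and was not called (adjusted p = 0.6). KHK had no value with its probe sets averaged or without those ending in _s_at or _x_at.

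Set directly against each other, C-Myc-sh cells were lower than Slc7a5-sh cells in 17 of the 34 genes and higher in 6, with 11 not called, against 49.5% of all tested genes called, 25.1% lower and 24.4% higher. The median difference was −0.18, against 0.03 for all tested genes. Of the 13 genes lower in both knockdowns, C-Myc-sh was the lower of the pair in 6 (HK2, GPI, PFKP, ALDOA, PGAM1 and LDHA), and 7 were not called (PFKL, TPI1, PFKFB3, PFKFB4, PGK1, PDK1 and PDHA1). Genes lower in both made up 13 of 34 here, against 7.30% of all tested genes. All 9 genes called lower in C-Myc-sh cells alone were also lower in the direct test, which were SLC2A1, PFKM, ENO1, PKM, LDHB, TKT, RPIA, RPE and KHK, though ENO1 was also called in Slc7a5-sh cells under the settings given above and turned in sign between the knockdowns, without a call, when probe sets ending in _s_at or _x_at were left out (0.15). The 3 genes called lower in Slc7a5-sh cells alone, HK1, PDP1 and PGLS, were higher in C-Myc-sh than in Slc7a5-sh cells, as were SLC2A3, ALDOC and PFKFB2. The direct test uses the same knockdown arrays as the calls that sorted these genes. Its agreement with that sorting is therefore partly built in and is no separate evidence. Of the direct calls, PFKFB2 (0.43, adjusted p = 0.0354) and PGAM1 (−0.17, adjusted p = 0.0255) each depended on single arrays. The PFKFB2 call was also lost without the filter (adjusted p = 0.0585) and with the replicate block (adjusted p = 0.0511). With probe sets averaged the PFKFB2 difference was 0.01 (adjusted p = 0.985). Averaging also removed the direct calls of PFKP (−0.77, adjusted p = 0.163) and PDP1 (0.45, adjusted p = 0.101). PFKFB2 was not called without Slc7a5-sh replicate 2 (0.36) or 3 (0.43) or C-Myc-sh replicate 1 (0.40) or 3 (0.37), and PGAM1 not without Slc7a5-sh replicate 1 (−0.18) or 2 (−0.17) or C-Myc-sh replicate 1 (−0.13) or 2 (−0.18). After quantile normalization between arrays ALDOA (−0.02), GAPDH (−0.10), TALDO1 (−0.06) and PFKFB2 (0.33) were no longer called, PGAM1 turned in sign without a call (0.049), and PGK1 was called higher in C-Myc-sh (0.16, adjusted p = 0.00335), as was TPI1 (0.25, adjusted p = 1.6e-04). The counts were then 13 lower and 7 higher.

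The balance between related genes was followed as a log2 ratio of their probe sets within each array, over 9 pairs. Such a ratio shows unequal change and not which gene was more abundant. With 3 arrays against 3 the exact two-sided permutation test cannot go below p = 0.1, and 0.129 was the lowest adjusted value over the 27 tests, so none could pass the threshold. The HK2/HK1 ratio changed by −0.45 in Slc7a5-sh cells, where both genes fell on the probe sets used, and by −1.98 in C-Myc-sh cells, where HK2 alone fell. The dimmer HK2 probe sets changed by 0.18 and 0.23 in Slc7a5-sh cells, so the direction of that ratio there depends on the probe set. ALDOC/ALDOA changed by −0.93 in Slc7a5-sh cells and 0.80 in C-Myc-sh cells, without overlap among the 3 groups. LDHA/LDHB changed by −0.30 and −0.70, PFKFB4/PFKFB2 by −1.59 and −1.52, and PDK1/PDK2 by −1.11 and −0.99, in Slc7a5-sh and C-Myc-sh cells. SLC2A3/SLC2A1 was 3.03 higher in C-Myc-sh than in Ctrl-sh cells and overlapped between Slc7a5-sh and Ctrl-sh (−0.15), a size as uncertain as that of SLC2A3. The PFKP/PFKL ratio was 0.63 higher in Slc7a5-sh than in Ctrl-sh cells, and overlapped between C-Myc-sh and Ctrl-sh (0.32, exact permutation p = 0.2). The dimmer PFKL probe set changed by −0.22 in Slc7a5-sh cells and was not called, close to the −0.17 of PFKP. The rise of that ratio thus rests on the PFKL probe set used.

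**Figure D3:**
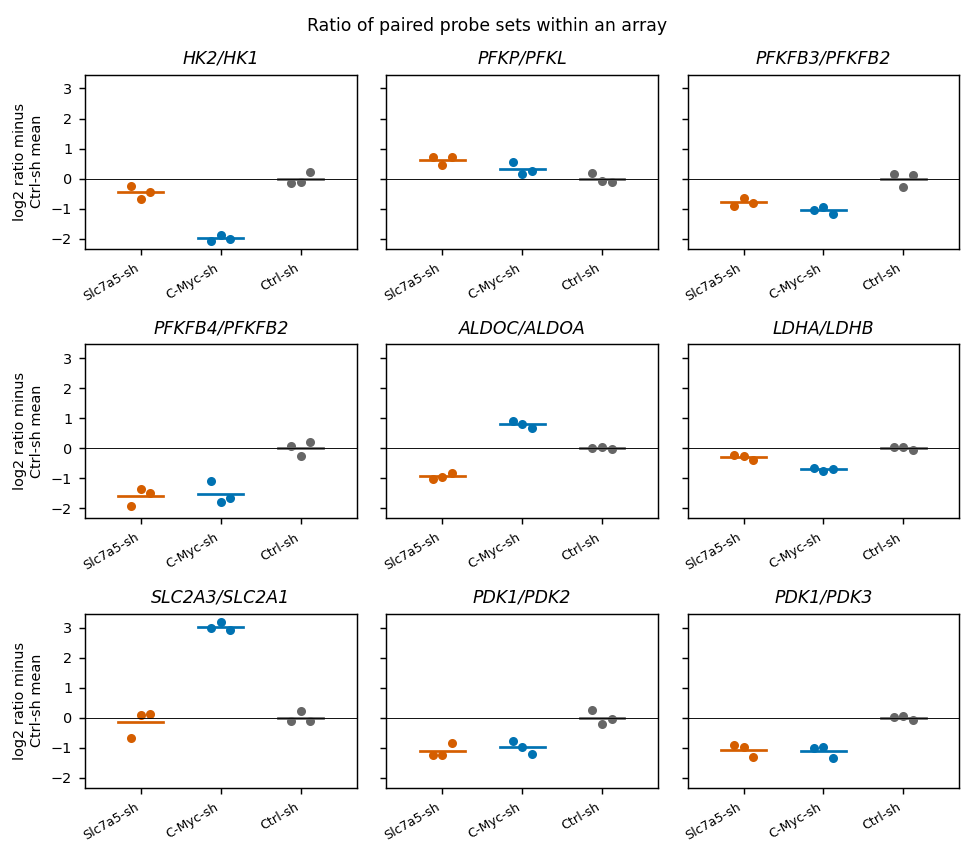
Log2 ratio of related genes on each array minus the Ctrl-sh mean of that ratio, for 9 pairs, with points for arrays and lines for group means (Slc7a5-sh left, C-Myc-sh middle, Ctrl-sh right). HK2/HK1 is lowest in C-Myc-sh cells, SLC2A3/SLC2A1 is high there, and ALDOC/ALDOA lies on opposite sides of Ctrl-sh in the knockdowns.

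Of the 35 measured genes, 25 had more than 1 probe set, and 20 had more than 1 above the filter level. In a limma fit of all probe sets without the filter, no gene had probe sets above that level called in opposite directions in any comparison. In that fit a called gene had another such probe set that was not called in 5 genes for Slc7a5-sh, 8 for C-Myc-sh and 8 for the direct comparison. These counts leave out PDHA1 (adjusted p = 0.0552) and PDP1 (adjusted p = 0.0799) in Slc7a5-sh cells and PFKFB2 (adjusted p = 0.0633) in the direct comparison. Their probe sets used here lost the call in that fit, and each gene had another such probe set that was not called. For the brightest transcripts the sizes differed. PGK1, with 6 probe sets, changed in Slc7a5-sh cells by −0.42 on the brightest (mean signal 14.17) and by −0.80 and −1.23 on sets with means of 11.86 and 8.86. ALDOA changed by −0.65 in Slc7a5-sh cells and −0.76 in C-Myc-sh cells on a probe set with mean 11.25, against −0.19 and −0.42 on the one used here. ENO1 changed by −0.71 and −0.89 on a set with mean 10.68, against −0.16 and −0.76. TKT changed in C-Myc-sh cells on its 3 probe sets by −1.61, −1.50 and −1.13.

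**Figure D4:**
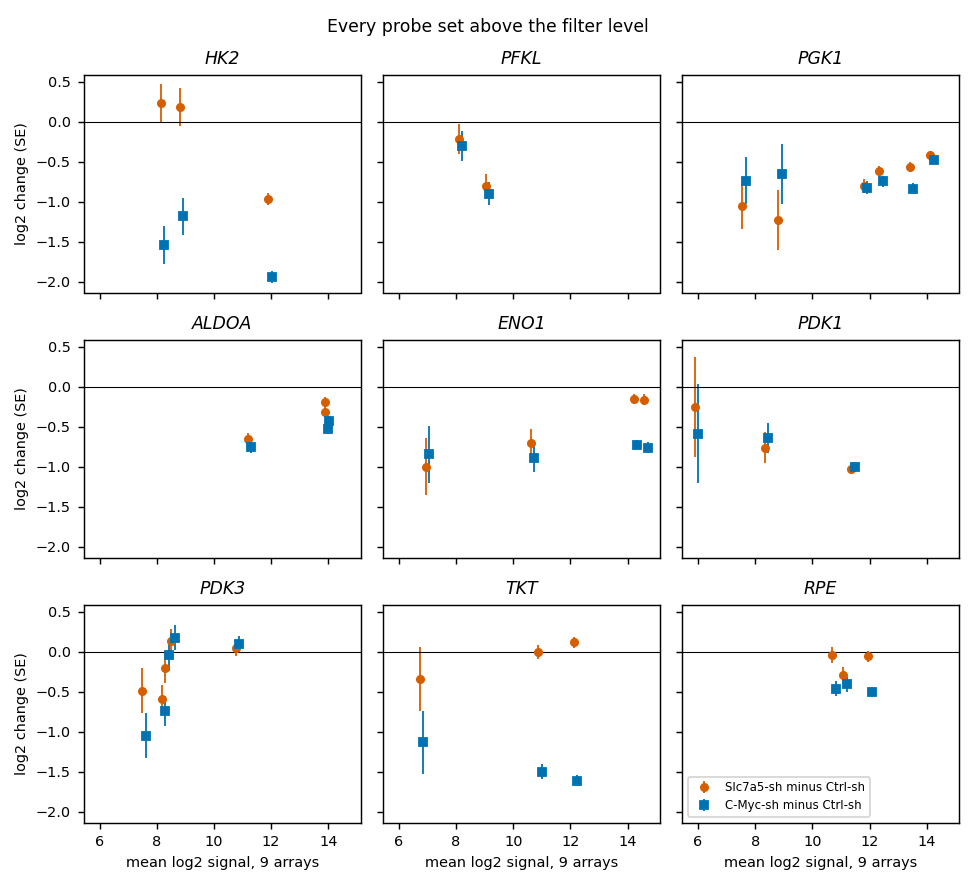
Log2 change against Ctrl-sh (with SE) of every probe set above the filter level for 9 genes, against the mean log2 signal of the probe set over the 9 arrays, circles for Slc7a5-sh and squares for C-Myc-sh. In Slc7a5-sh cells the changes of PGK1, ALDOA and ENO1 are smaller in size on the bright probe sets than on the dim ones, and for HK2 the Slc7a5-sh fall is seen on the brightest alone.

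Other genes of these routes moved in both directions. Of 63 such genes listed 58 were measured and 41 tested. In Slc7a5-sh cells 9 fell and 4 rose, and in C-Myc-sh cells 13 fell and 9 rose, with medians of −0.10 and −0.02. Among all tested genes 25.3% and 54.9% were called, so nothing particular to these genes is read from the counts. The phosphoribosyl pyrophosphate synthetases, which activate ribose for nucleotide synthesis, fell in both. PRPS1 averaged 12.37 ± 0.09 in Slc7a5-sh cells, 11.04 ± 0.05 in C-Myc-sh cells and 12.70 ± 0.07 in Ctrl-sh cells (SD, n = 3 each), with changes of −0.33 (adjusted p = 0.00165) in Slc7a5-sh cells and −1.66 (adjusted p = 3.1e-11) in C-Myc-sh cells. PRPS2 averaged 11.72 ± 0.14 in Slc7a5-sh cells, 10.78 ± 0.05 in C-Myc-sh cells and 12.17 ± 0.07 in Ctrl-sh cells (SD, n = 3 each), with changes of −0.44 (adjusted p = 6.0e-04) and −1.38 (adjusted p = 9.8e-10). Both were lower in C-Myc-sh than in Slc7a5-sh cells, with differences of −1.33 (adjusted p = 4.8e-10) for PRPS1 and −0.94 (adjusted p = 8.6e-08) for PRPS2. DERA, the deoxyribose phosphate aldolase, changed by −0.37 (adjusted p = 0.00101) in Slc7a5-sh cells and −0.19 (adjusted p = 0.0233) in C-Myc-sh cells, the C-Myc-sh call being lost without Ctrl-sh replicate 2 (−0.19) or 3 (−0.20) or C-Myc-sh replicate 1 or 2 (both −0.18).

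At the entry of pyruvate into mitochondria, MPC1 and MPC2, the subunits of the mitochondrial pyruvate carrier, differed in C-Myc-sh cells. MPC1 changed by 0.36 (adjusted p = 0.00334) and MPC2 by −0.66 (adjusted p = 9.1e-08) there, and neither was called in Slc7a5-sh cells, at −0.10 (adjusted p = 0.443) and −0.11 (adjusted p = 0.164). MPC2 was, however, called lower in Slc7a5-sh cells with its probe sets averaged (−0.25, adjusted p = 0.021) and without those ending in _s_at or _x_at (−0.39, adjusted p = 0.0201). The MPC1 rise rested on its brightest probe set, and the mean of all its probe sets gave −0.83 (adjusted p = 0.162). Within the pyruvate dehydrogenase complex, C-Myc-sh cells had lower DLAT, the acetyltransferase (−0.67, adjusted p = 7.4e-05), and higher PDHX, its binding protein (0.53, adjusted p = 3.1e-04), while PDHB, the partner of PDHA1, was not called (−0.01, adjusted p = 0.946). In Slc7a5-sh cells DLAT was not called (−0.15, adjusted p = 0.336). It was called lower there with its probe sets averaged (−0.27, adjusted p = 0.0208) and without those ending in _s_at or _x_at (−0.44, adjusted p = 0.00126). Without the latter sets DLAT did not differ by a call between the knockdowns (−0.18, adjusted p = 0.0861). DLD, the dehydrogenase shared with other complexes, changed by −0.23 (adjusted p = 0.0121) in Slc7a5-sh cells and 0.25 (adjusted p = 0.00251) in C-Myc-sh cells and differed between them by 0.48 (adjusted p = 1.0e-05). With its probe sets averaged the C-Myc-sh change of DLD was 0.05 (adjusted p = 0.688). The Slc7a5-sh call of DLD was lost after quantile normalization (−0.17, adjusted p = 0.0539) and without the mean-variance trend (−0.23, adjusted p = 0.0678). ME2, the mitochondrial malic enzyme, which makes pyruvate from malate, changed by −0.31 (adjusted p = 0.00101) and −1.20 (adjusted p = 2.7e-10).

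SLC2A5, a fructose transporter, was called in opposite directions, 0.50 (adjusted p = 7.8e-05) in Slc7a5-sh cells and −0.64 (adjusted p = 6.3e-07) in C-Myc-sh cells. With the mean of its probe sets the Slc7a5-sh value was −0.27 (adjusted p = 0.484). Without probe sets ending in _s_at or _x_at SLC2A5 was called in neither knockdown. The values were then 0.48 (adjusted p = 0.0501) in Slc7a5-sh cells and −0.20 (adjusted p = 0.351) in C-Myc-sh cells. TIGAR, a phosphatase that lowers the fructose regulator, rose slightly in C-Myc-sh cells (0.19, adjusted p = 0.042) and was not called in Slc7a5-sh cells (−0.20, adjusted p = 0.0676). That rise lost its call without any 1 of the Ctrl-sh replicates (0.18, 0.20 and 0.18) or without C-Myc-sh replicate 2 (0.15) or 3 (0.17). BPGM, the bisphosphoglycerate mutase, was called in neither, at −0.17 (adjusted p = 0.265) and 0.25 (adjusted p = 0.0577), and was called in C-Myc-sh cells without Ctrl-sh replicate 1 (0.32) or Slc7a5-sh replicate 1 (0.25). Of 6 regulators tested, HIF1A and TXNIP rose in both knockdowns and no other was called. HIF1A, the oxygen-regulated subunit of HIF1, averaged 12.93 ± 0.03 in Slc7a5-sh cells, 13.50 ± 0.04 in C-Myc-sh cells and 12.50 ± 0.05 in Ctrl-sh cells (SD, n = 3 each), with changes of 0.43 (SE 0.05, adjusted p = 4.1e-05) and 1.00 (SE 0.05, adjusted p = 5.6e-10). TXNIP, an inhibitor of glucose uptake induced by sugar phosphates, averaged 11.29 ± 0.08 in Slc7a5-sh cells, 11.96 ± 0.06 in C-Myc-sh cells and 10.83 ± 0.06 in Ctrl-sh cells (SD, n = 3 each), with changes of 0.46 (SE 0.07, adjusted p = 2.2e-04) and 1.13 (SE 0.07, adjusted p = 3.4e-09). HIF1A acts mainly through its protein, which was not measured.

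**Figure D5:**
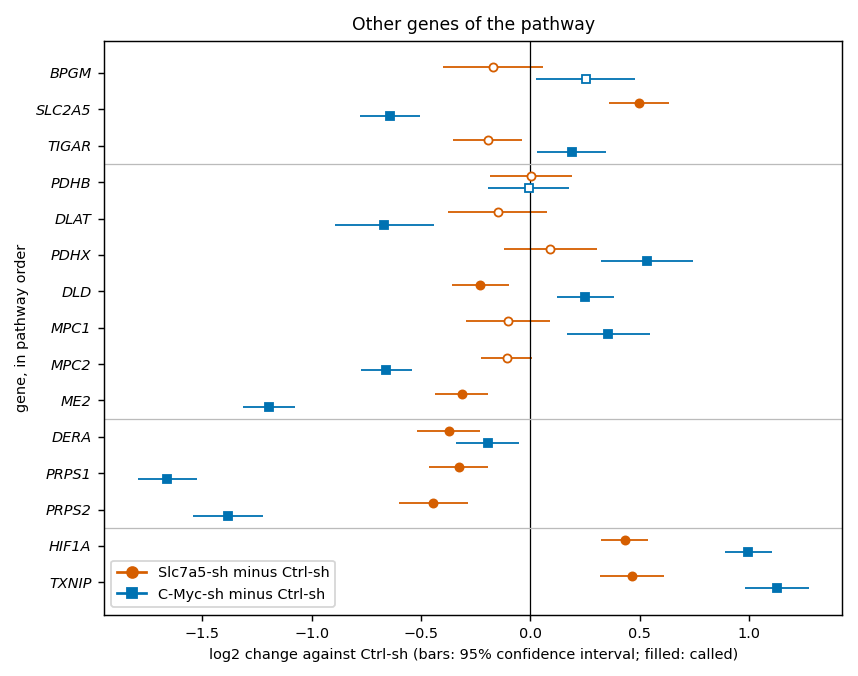
Log2 change against Ctrl-sh of 15 other genes of the pathway, circles for Slc7a5-sh and squares for C-Myc-sh, with limma 95% confidence intervals and filled symbols for called genes. PRPS1, PRPS2 and ME2 lie left of 0 in both, HIF1A and TXNIP right of 0 in both, and SLC2A5 and DLD on opposite sides.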

How the data were processed

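Total RNA was amplified with a 3' labelling kit and hybridised to Affymetrix arrays, per the labels' protocols, with 9 arrays in all. The deposited values are log2 signals made with MAS5 per the submitters' processing notes; its version and settings are not given in the sources used here. On the linear scale the mean after trimming 2% at each end was 497 on every array, and no value was missing. Detection calls were not used here, and precision is limited by the 3 arrays per group.

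Of 54613 probe sets 41091 carried 1 gene symbol, 1801 several and 11721 none in GEO's platform annotation, and 41037 matched RefSeq by Entrez number with 0 symbols changed. Each gene was its probe set of highest mean, and 20 of those used end in _s_at or _x_at, which can read related transcripts. Genes were tested where that mean reached the median of all probe sets, 5.77 log2 units (54.6 on the linear scale). limma 3.58.1 in R 4.3.3 fitted 3 group means over all 9 arrays with a mean-variance trend (6 residual and 8.21 prior degrees of freedom). Two-sided p-values were adjusted by Benjamini-Hochberg over 11250 genes. The script was tested on simulated data. Promoters were scanned in RefSeq's GRCh38.p14 table.

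The named genes are all 37 listed, with array values where a called change reached 0.5 log2 units or directions were opposite. Of the other pathway genes, those named are the 6 with the smallest p among called genes in each comparison with Ctrl-sh, and a few listed ones. The members and lists were chosen with earlier results of these data known. Alternatives were other scalings, filters, probe-set rules, variance models, a replicate block and leaving out each array. For the named genes outside the 37 they were added after seeing the data.

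Same-numbered arrays of different groups did not deviate together, so the numbers were not taken to pair them. SLC16A1, SLC16A3 and some other listed genes were not analysed here.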

Additional observations from a re-analysis of the deposited data

How the results depend on the processing

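Of the called genes of the list, 7 of 17 in Slc7a5-sh against Ctrl-sh kept their call under every alternative in which the gene had a value, 19 of 25 in C-Myc-sh against Ctrl-sh, and 12 of 23 in C-Myc-sh against Slc7a5-sh. Of the same called genes 7, 11 and 10 had no value under 1 or more alternatives. With 1 array left out the number called ran from 12 to 17, 24 to 25 and 21 to 23. Without probe sets ending in _s_at or _x_at, which left 21 of the genes tested, 9, 13 and 9 were called, the last with 4 lower and 5 higher. Without the mean-variance trend 10 were called in Slc7a5-sh. With a gene's probe sets averaged, 1581 rather than 2843 of all genes were called in Slc7a5-sh, and 12 of the list.

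Some single genes turned in sign. With the mean of probe sets, values were 0.26 for PFKP and −0.27 for SLC2A5 in Slc7a5-sh; −0.31 for PDK3 (called, adjusted p = 0.0474 by limma), −0.51 for PFKFB2 and −0.83 for MPC1 in C-Myc-sh; and 0.073 for RPE, 0.14 for SLC2A1 and −0.42 for MPC1 between the knockdowns. Without _s_at and _x_at sets, ENO1 was 0.15 and SLC2A1 0.86 between the knockdowns. With quantile normalization PGAM1 was 0.049 and PGK1 0.16 (called, adjusted p = 0.00335 by limma) between the knockdowns, and TPI1, not called before, was called there (0.25). That scaling moved the median change of all genes by at most 0.04 and shrank the C-Myc-sh changes of bright genes (ALDOA −0.20, TPI1 −0.13, PGK1 −0.25, PGAM1 −0.20, LDHB −0.14), and PDHA1 lost its call there (−0.06). Other causes were not tested.

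Replicate numbers did not pair the arrays: same-numbered arrays of different groups deviated together with correlations of −0.02 to 0.02, and 2 of 9 arrays correlated best with their own number. With the replicate block 16, 25 and 22 of the genes were called. Signals near 15, close to the array maxima of 15.32 to 15.60, and signals below the filter level limit what sizes of change can be read.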
